A study of Mus musculus with 14 samples.

Results

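Cortical neurons of the SA line were compared before and after depolarisation by KCl, over 4 cultures and 8 RNA-seq libraries of the 14 in the series. Members were chosen by their labels: a KCl and a basal library of 2 cultures with the S1382A knock-in in Brg1 (SA cultures 1 and 2), and the same of the 2 wild-type cultures named for that line (wild-type cultures 1 and 2). BRG1, encoded by Smarca4, is an ATPase of the BAF chromatin remodelling complex. S1382A puts an alanine in place of serine 1382, and the labels do not say whether 1 or both alleles carry it. The neurons were dissociated from cortex of mouse embryos at E16.5 and grown as primary cultures, and the labels call the wild-type cultures littermate controls. Per the labels' protocols, spontaneous firing was silenced in all cultures, controls included, on day 5 in vitro by tetrodotoxin (1 µM), a sodium channel blocker, with the NMDA receptor antagonist APV (100 µM). KCl was given at 50 mM for 1 h on day 6. The other line of the series, with the S1382E knock-in (SE line), holds 2 mutant cultures and 1 wild-type culture (6 libraries). It serves below only to show where the SA line differs and to supply a list of induced genes. The labels do not say which embryos or platings the cultures came from, so p-values measure the spread between these samples, which may be technical.

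Raised extracellular potassium depolarises neurons and opens voltage-gated calcium channels. Calcium then acts through kinases on transcription factors that are already present, such as CREB and SRF, and these switch on immediate early genes within minutes, without new protein synthesis. Many of those genes encode transcription factors of the Fos, Egr and Nr4a families and Npas4, and others encode synaptic proteins, secreted peptides and inhibitors of the signal itself.

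The labelled cell type was checked on its markers. General neuronal markers were expressed in every library, with summed levels of the 10 listed genes between 4423 and 7080 CPM at basal. CPM are counts scaled to a common library size by edgeR's TMM factors. For summed marker levels and comparisons with the SE line the factors were computed over all 14 libraries. For all other levels they were computed over the 8 of the SA line, so levels of a gene differ slightly between these uses. Markers of other cells were present as well: summed basal levels were 3523 to 4811 CPM for 12 genes of astrocytes and radial glia, 675 to 790 CPM for 10 genes of the oligodendrocyte lineage, 178 to 213 CPM for 10 microglial genes and 624 to 1464 CPM for 18 cell cycle genes. Of the 10 endothelial and mural markers, Cldn5, Tek and Kcnj8 were too low to be tested. In bulk RNA, fewer cells of a type and less RNA per cell cannot be told apart. Libraries held 22625900 to 22948600 estimated counts, and 6.47% to 8.24% of them came from the mitochondrial genome. The first principal component of the 8 libraries held 48.4% of the variance and set both libraries of wild-type culture 1 (55.2 and 57.7) apart from the other 6 (-35.2 to -6.46). The second held 19.7% and separated KCl (15.8 to 27.7) from basal libraries (-26.3 to -14.2). Wild-type culture 1 had the lowest summed level of neuronal markers (4423 CPM at basal) and the highest of cell cycle genes (1464 CPM).

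KCl changed 1348 of 16336 tested genes, 8.25%, at an adjusted p under 0.05 (edgeR's quasi-likelihood test with culture as a block and Benjamini-Hochberg adjustment over all genes, as for every adjusted p below). Of these 724 rose, 4.43% of the genes tested, and 624 fell, 3.82%. With libraries scaled by their totals alone the split was 623 that rose and 804 that fell, and the median log2 change of all genes moved from 0.0005 to -0.027. Rises reached further than falls. At least a 2-fold change was found for 155 genes that rose and 55 that fell, and over 8-fold for 24 that rose and 0 that fell. In 154 of the 155 and 53 of the 55 all 4 cultures moved the same way. Without culture as a block 285 genes were called, 205 up and 80 down, all of them among the 1348. Smarca4 (ENSMUSG00000032187.16, chromosome 9, 21616169 to 21704230, GRCm38), the gene that carries the knock-in, stood at 449, 431, 398 and 464 CPM at basal in SA cultures 1 and 2 and wild-type cultures 1 and 2. After KCl it stood at 430, 395, 399 and 396 CPM (log2 change -0.10 ± 0.05, standard error, adjusted p = 0.284). A changed codon need not alter the level of its transcript, so these values check no genotype label.

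The largest rises belonged to transcription factors, and 4 of them are shown with the DNA before their start sites, because the core of the CREB response element in it recurs among the induced genes. Each line gives the 250 bases before the RefSeq start (GRCm38.p6), 5′ to 3′ on the strand of the gene, with TGACG and its reverse complement CGTCA in capitals. The windows are chr19:4989972-4990221 (minus strand) for Npas4, chr12:85473640-85473889 (plus) for Fos, chr15:101266596-101266845 (plus) for Nr4a1 and chr6:85513590-85513839 (minus) for Egr4.
Npas4: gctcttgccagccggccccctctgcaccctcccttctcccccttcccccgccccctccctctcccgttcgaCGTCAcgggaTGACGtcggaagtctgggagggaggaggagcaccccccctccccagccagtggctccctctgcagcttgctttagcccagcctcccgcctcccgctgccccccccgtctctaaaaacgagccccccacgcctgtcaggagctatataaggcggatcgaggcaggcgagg
Fos: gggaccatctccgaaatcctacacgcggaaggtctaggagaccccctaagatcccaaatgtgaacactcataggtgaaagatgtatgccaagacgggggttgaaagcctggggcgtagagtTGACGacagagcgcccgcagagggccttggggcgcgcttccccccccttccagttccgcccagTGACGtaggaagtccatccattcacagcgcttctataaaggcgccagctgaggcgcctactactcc
Nr4a1: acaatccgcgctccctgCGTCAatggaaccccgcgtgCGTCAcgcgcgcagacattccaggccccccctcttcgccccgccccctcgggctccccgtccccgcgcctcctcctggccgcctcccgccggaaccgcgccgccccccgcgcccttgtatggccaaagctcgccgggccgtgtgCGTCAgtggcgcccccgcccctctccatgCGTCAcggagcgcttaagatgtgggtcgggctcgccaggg
Egr4: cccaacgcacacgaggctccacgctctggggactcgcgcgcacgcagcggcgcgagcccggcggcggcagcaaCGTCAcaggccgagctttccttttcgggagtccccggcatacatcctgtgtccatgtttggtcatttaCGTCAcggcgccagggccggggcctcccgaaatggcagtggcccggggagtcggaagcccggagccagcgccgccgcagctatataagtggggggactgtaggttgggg
Npas4, Fos and Egr4 each held 2 cores and Nr4a1 held 4. These genes were picked by hand and do not stand for all large rises. Among other genes that rose most, the windows of Nr4a2 and Pcsk1 held 4 and 3 cores. Those of Fosb, Junb and Klf4 held 1 each, and those of Egr2, Ptgs2 and Gadd45b held 0. The core that lies nearest to the start of Fos begins 66 bases before it. Among 37 such windows of the 55 genes that rose at least 4-fold, 21 held a core (56.8%), against 3060 of 11697 windows of all tested genes (26.2%). At least 2 cores were found in 35.1% against 6.87%, where the full palindrome counts as 2. The share of windows with any core was 44.6% for genes that rose 2-fold to 4-fold, 45.6% for smaller rises and 20% for genes that fell. The full palindrome TGACGTCA was present in 10.8% of the first class and 2.74% of all windows. A site of EGR factors, GCGNGGGCG on either strand, was present in 21.6% and 8.8%, and the AP-1 site TGANTCA in 0 of 37 windows and 4.2%. Median GC content was 64% in the first class and 60% in all windows, and its part in these shares was not tested. The windows of Npas4 and Nr4a1 lie inside the gene spans given below, whose annotation begins further upstream than the RefSeq start. A match of letters is not a bound site. Arc had no window in the table used here.

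Each of the values that follow is in the order SA culture 1, SA culture 2, wild-type culture 1, wild-type culture 2, all in CPM. Npas4 (ENSMUSG00000045903.9, chromosome 19, 4984355 to 4990316), a transcription factor of neurons that answers to calcium entry, stood at 1.89, 1.54, 2.41 and 1.71 at basal and at 524, 532, 568 and 517 after KCl. It rose by 8.14 ± 0.08 on the log2 scale (standard error), 283-fold, with an adjusted p of 1.07e-15. The 4 KCl levels lay close together and far above every basal level. Nr4a1 (chromosome 15, 101254269 to 101274795), an orphan nuclear receptor, went from 5.93, 7.03, 6.83 and 6.00 to 664, 594, 679 and 588, 97.7-fold (adjusted p = 1.47e-15). Nr4a2 (chromosome 2, 57106830 to 57124003), its relative, went from 5.21, 4.48, 3.33 and 4.6 to 180, 192, 186 and 204, 43.3-fold (adjusted p = 5.61e-14). The groups did not overlap for any of the 3 genes. Of 24 listed Nr4a receptors, Kruppel-like and other inducible factors, 24 were tested, 16 rose and 2 fell, Klf10 (-0.56) and Ier5l (-0.70). Their median log2 change was 1.28, against 0.0005 over all tested genes. Klf4, a Kruppel-like factor, went from 2.02, 2.94, 8.08 and 2.32 to 94.3, 79.4, 52.9 and 82.7. Wild-type culture 1 had both the highest basal and the lowest KCl level. Nfil3, a bZIP repressor, rose by 2.96 ± 0.07 and Ier2 by 3.12 ± 0.08.

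The Fos and Jun genes encode the subunits of AP-1, a dimer that binds enhancers of late response genes. Of 12 listed AP-1 factors 10 passed the filter on low counts and 10 rose, with a median of 2.25. Batf and Batf3 were too low to be tested. Fosb (chromosome 7, 19302696 to 19310051) showed the largest log2 change of the genes named here. It went from 0.674, 0.483, 1.17 and 0.526 to 469, 428, 401 and 455 CPM, 9.24 ± 0.12 on the log2 scale (adjusted p = 8.22e-15). Fos (chromosome 12, 85473890 to 85477273) went from 6.11, 7.74, 11.7 and 6.40 to 468, 433, 521 and 439, 58.7-fold. Junb (chromosome 8, 84974484 to 84978718) went from 10.3, 11.6, 13.5 and 10.8 to 626, 534, 516 and 543, 47.8-fold. Wild-type culture 1 had the highest basal level of these 3 genes, and basal and KCl levels were far apart in all 4 cultures. Fosl2 rose by 3.94 ± 0.09, Maff by 2.68, Atf3 by 1.81, Jun by 1.38 and Jund by 0.63 on the log2 scale.

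Egr factors are zinc finger proteins that bind GC-rich sites, and Nab1 and Nab2 are corepressors that bind them. All 6 listed members were tested and rose, with a median of 3.94. Egr4 (chromosome 6, 85511121 to 85513589) went from 1.39, 1.63, 0.749 and 1.10 to 207, 181, 156 and 187 CPM, 150-fold (adjusted p = 8.22e-15). Egr2 (chromosome 10, 67535475 to 67542188) went from 1.57, 0.879, 1.29 and 1.75 to 105, 85.2, 46.6 and 91.5. For both genes the lowest KCl level was that of wild-type culture 1. Egr1 went from 15.3, 16.4, 15.9 and 15.1 to 542, 468, 447 and 488, 30.9-fold (adjusted p = 8.91e-15). Egr3 (chromosome 14, 70077203 to 70082614) went from 30.0, 23.6, 5.70 and 25 to 168, 143, 124 and 164. Its basal level in wild-type culture 1 was the lowest of the 4, and that culture's log2 ratio, 4.43, stood above the other 3 at 2.49 to 2.71. Nab1 and Nab2 rose by 0.31 and 0.29, and neither was called without the culture block.

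**Figure D1:**
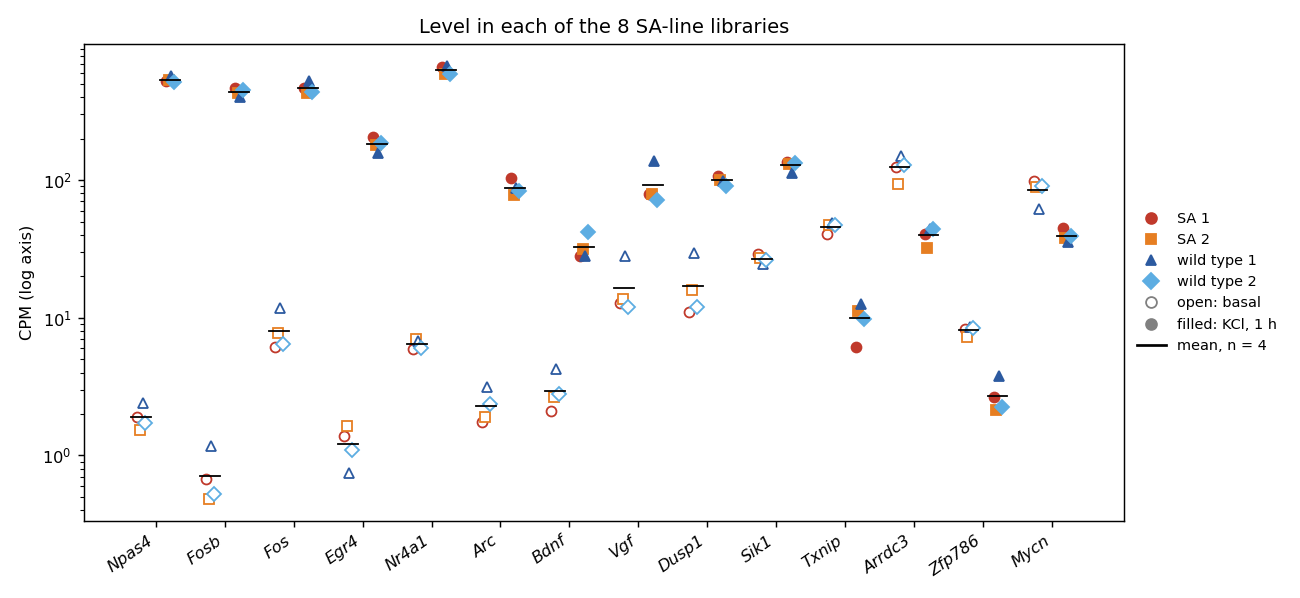
Level of 14 genes in each of the 8 libraries of the SA line, in CPM on a log axis; open symbols are basal, filled symbols are 1 h of KCl, colours and shapes mark the culture and black bars are means of 4. Basal and KCl symbols do not overlap for any gene shown, and levels are not scaled by gene length, so heights are not comparable between genes. The last 4 genes fell, the first 10 rose.

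Synaptic and secreted effectors rose as well. Of 26 listed, 26 were tested and 20 rose, with a median of 1.42, and 6 did not pass (Nptx1, Inhba, Penk, Sv2c, Lingo1 and Pdlim1). Arc (chromosome 15, 74669083 to 74672570), a postsynaptic protein that drives removal of AMPA receptors, went from 1.75, 1.89, 3.12 and 2.37 to 104, 77.9, 87.9 and 83.2 CPM, 38.3-fold (adjusted p = 1.8e-12). Bdnf (chromosome 2, 109674700 to 109727007), a neurotrophin, went from 2.11, 2.64, 4.25 and 2.80 to 28.0, 31.8, 28.1 and 42.1, 10.9-fold (adjusted p = 1.82e-09). Neither gene overlapped between treatments. Pcsk1 (chromosome 13, 75089826 to 75134861), a protease that cleaves prohormones in secretory granules, went from 2.25, 2.46, 2.50 and 2.80 to 41.8, 39.3, 25.6 and 59.8, 16.2-fold. Ptgs2 (chromosome 1, 150100031 to 150108227), the inducible cyclooxygenase, went from 0.494, 0.352, 0.957 and 0.570 to 10.2, 8.65, 6.92 and 12.6. Both were lowest after KCl in wild-type culture 1 and highest in wild-type culture 2, which the labels tell apart by number alone. Granule proteins followed: Vgf rose from 12.7, 13.6, 28.0 and 11.9 to 79.2, 78.8, 137 and 71.4 CPM, and Scg2 by 2.10 ± 0.06 on the log2 scale. Of neuropeptide genes on the list, Adcyap1 rose by 2.84, Tac1 by 2.07 and Crh by 1.76, while Penk did not pass at 0.30. Of 22 listed growth factor and cytokine genes 13 were tested. Edn1, endothelin 1, rose by 1.6 ± 0.24 and Lif fell by 0.75, and neither was called without the block. Edn1 overlapped between treatments, with 3.80, 3.19, 0.911 and 2.69 CPM after KCl.

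The primary transcript of the neighbouring miRNAs miR-212 and miR-132, short RNAs that repress mRNAs through their seed, was captured at its hairpins on chromosome 11. Their 3′ arms are printed because both carry the same seed (bases 2 to 8, in capitals), so they share predicted targets, and because both hairpins rose together. Sequences are from RefSeq (GRCm38.p6), 5′ to 3′.
mmu-miR-212-3p: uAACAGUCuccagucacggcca
mmu-miR-132-3p: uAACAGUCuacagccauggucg
Mir212 (75173388 to 75173478) held 2, 2, 3 and 1 estimated counts at basal and 70, 29, 71 and 42 after KCl. Mir132 (75173682 to 75173747) held 0, 0, 1 and 1 at basal and 39, 22, 27 and 31 after KCl. The groups did not overlap for either hairpin. The fitted log2 change of Mir212 was 4.66 ± 0.32 (adjusted p = 3.43e-07). With so few basal counts it depends on the prior count of the fit, and for Mir132 no fold is given (adjusted p = 5.38e-06). Mature miRNAs are not read by such libraries. Mir132 lies outside the rule for named genes and was chosen after its values were seen.

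Inhibitors of the activating signal rose within the same hour. Of 17 listed regulators of MAP kinase signalling 12 rose and 1 fell, with a median of 0.70, and 6 rose without the culture block. Dusp1, a phosphatase that inactivates MAP kinases in the nucleus, went from 11.0, 15.9, 29.6 and 12 to 108, 99.5, 99.2 and 91.2 CPM (2.60 ± 0.17, adjusted p = 2.8e-07). Dusp6, its relative specific for ERK, rose by 1.82 ± 0.11, Errfi1, an inhibitor of the EGF receptor, by 1.28 ± 0.06 and Spry2 by 1.09 ± 0.09. Dusp7 fell by 0.28. Spred1, Spred2 and Spred3 did not pass, with log2 changes of 0.07, 0.09 and 0.03. Of 20 other feedback and stress regulators 10 rose and 1 fell, Socs3 (-0.69), with a median of 0.30, and 6 rose without the block. Gadd45b, a stress protein linked to DNA demethylation, went from 2.74, 3.87, 4.20 and 3.33 to 64.9, 65.6, 36.4 and 56.5 CPM, 15.4-fold. Trib1, a pseudokinase, rose by 2.09 ± 0.07, Gadd45g by 1.91 ± 0.08 and Ppp1r15a, which directs a phosphatase to the translation factor eIF2α, by 1.8 ± 0.05.

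Among 17 genes of mRNA decay and growth arrest 5 rose, with a median of 0.05. They were Btg2, Tob2, Tob1, Btg1 and Zc3h12c. BTG and TOB proteins recruit the CCR4-NOT deadenylase, which shortens the poly(A) tail of mRNAs. Btg2 went from 10.7, 14.4, 28.8 and 12.7 to 105, 86.4, 112 and 94.8 CPM, Tob2 from 24.6, 32.0, 27.3 and 31.4 to 96.6, 104, 94.3 and 105. Genes of the deadenylase itself (Cnot3, Cnot6, Cnot7, Cnot8, Pan2 and Pan3) did not pass, with changes between -0.09 and 0.00. Of 23 listed protein kinases 7 rose and Camk4 fell (-0.27), and 4 rose without the block. Sik1, a kinase that holds CRTC coactivators of CREB in the cytoplasm, went from 29.1, 27.1, 24.6 and 26.1 to 135, 131, 113 and 133, 2.26 ± 0.05 on the log2 scale (adjusted p = 3.46e-12). Pim3 rose by 1.17, Plk2 by 1.09 and Plk3 by 0.81. Plk2 was not called without the block. The constitutive Camk2a, Camk2b, Camk2d and Camk2g did not pass, with changes from -0.05 to 0.02. Of 20 small GTPases and their regulators 11 rose and 1 fell (Rasl11b), with a median of 0.34, and 6 rose without the block. Rasd1, a Ras-like protein, stood at 0.539, 0.527, 0.291 and 0.307 CPM at basal. After KCl it stood at 8.37, 7.89, 0.663 and 6.79, so the KCl level of wild-type culture 1 was far below the others, with a log2 ratio of 1.06 against 3.78 to 4.26. Rem2, a GTPase that binds calcium channel subunits, rose by 1.8 ± 0.12 and Arl5b by 1.73 ± 0.08.

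Smaller rises were found in pathways of stress, sterols and the clock. Of 22 genes of heat shock and the unfolded protein response 7 rose, with a median of 0.10, and 3 without the block. Atf4, the transcription factor of the integrated stress response, rose by 1.09 ± 0.05 (100, 99.5, 124 and 86.6 to 186, 227, 272 and 192 CPM). Asns and Chac1, which are only some of its targets, did not pass, at 0.08 and -0.18. Dnajb1 rose by 0.89, Dnajb9 by 0.51 and Herpud1 by 0.49. Of 18 genes of cholesterol synthesis and uptake 7 rose, with a median of 0.13, and 2 without the block. Msmo1, an enzyme of sterol synthesis, rose by 0.52 ± 0.06 and Insig1, which retains sterol sensors in the endoplasmic reticulum, by 0.49 ± 0.05. Of 19 tested clock genes 4 rose, Per1 (1.43 ± 0.07), Nfil3, Ciart and Cry2, and Nr1d1 fell by 0.28, while Per2 did not pass at 0.08. Of 17 tested targets of SRF and YAP 5 rose, 1 of them without the block (Mcl1). Cyr61, a matrix protein, went from 45.9, 111, 142 and 80.4 to 116, 145, 233 and 132, with overlap between treatments.

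**Figure D2:**
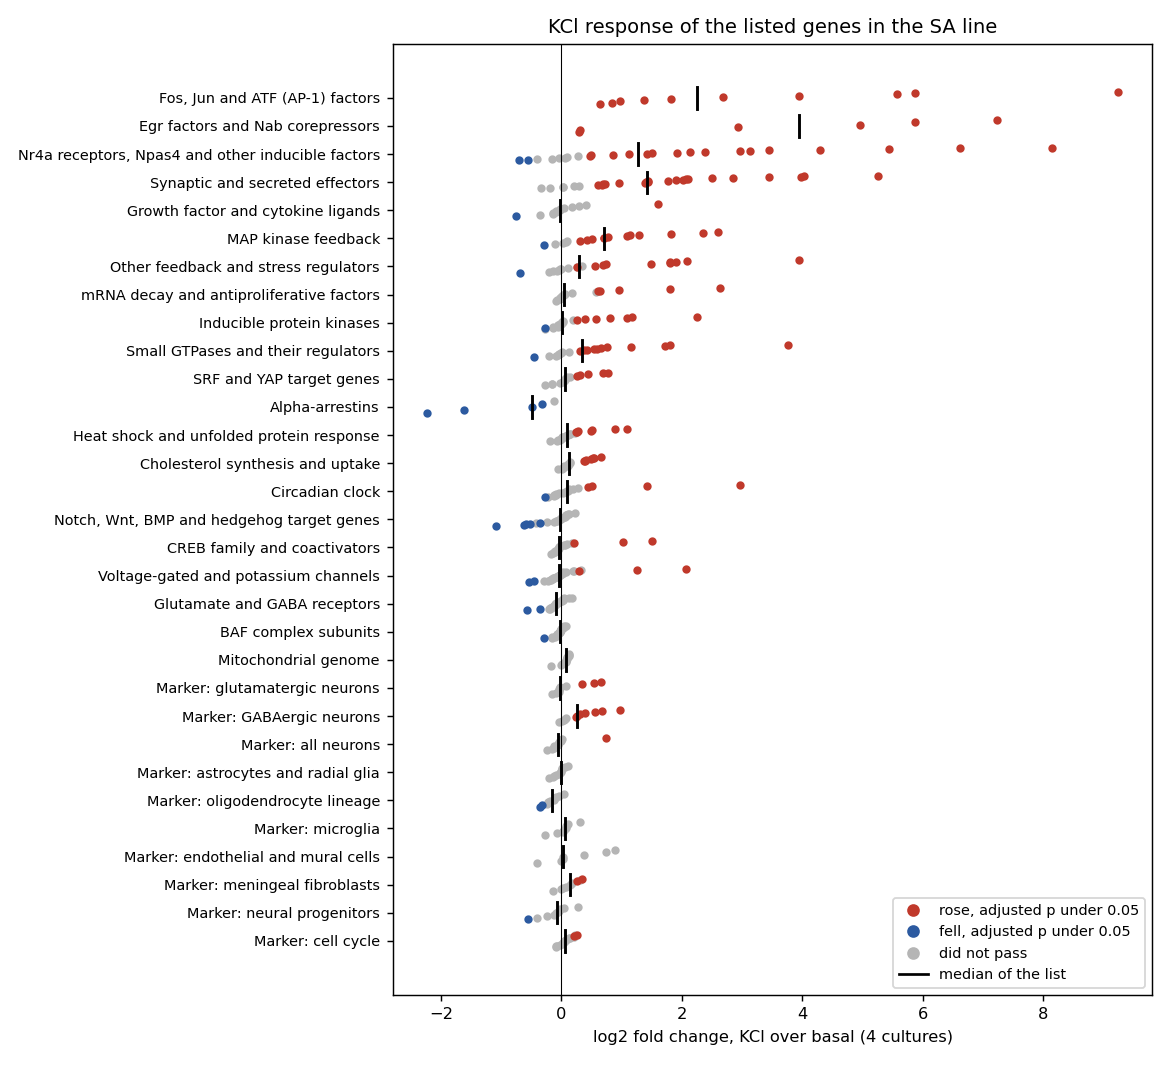
Log2 fold change of KCl over basal for every tested member of the 31 gene lists, 1 point per gene; red rose and blue fell at an adjusted p under 0.05, grey did not pass, and black bars are list medians. The AP-1, Egr, Nr4a and synaptic lists reach furthest to the right, alpha-arrestins have the lowest median at -0.49, and glial marker lists stay near 0.

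Falls were smaller. Of the 15 genes that fell most 10 were zinc finger genes and 2 were alpha-arrestins, and the others were Drd1, Map10 and Gpr139. Alpha-arrestins are adaptors that mark membrane proteins for degradation, and Txnip and Arrdc4 also restrain glucose uptake. Of 5 tested 4 fell, with a median of -0.49, and 2 fell without the block. Txnip (chromosome 3, 96557957 to 96561883) went from 40.7, 47.4, 48.5 and 47.3 to 6.18, 11.1, 12.5 and 9.75 CPM, -2.23 ± 0.10 on the log2 scale (adjusted p = 3.3e-09). Arrdc3 (chromosome 13, 80883384 to 80896042) went from 125, 93.3, 149 and 129 to 40.4, 31.9, 43.8 and 44.2, -1.62 ± 0.05. Neither overlapped between treatments. Arrdc4 and Arrdc2 fell by 0.33 and 0.49. Drd1, the D1 dopamine receptor, fell by 1.52 ± 0.23 from 2.16, 1.49, 1.08 and 2.45 CPM, and Gpr139, an orphan receptor, by 1.24 ± 0.08. Neither of these receptors was called without the block. Map10, a microtubule-associated protein, fell by 1.27 ± 0.10.

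Zinc finger genes fell as a group. Most genes with a Zfp symbol encode proteins with arrays of C2H2 zinc fingers, many with a KRAB repressor domain. The set of all tested symbols of Zfp and a number was made after values had been seen, so its counts are a description. Of its 362 genes 161 fell and 13 rose, and 298 had a log2 change below 0. Over all tested genes 3.82% fell and 4.43% rose. The median of the set was -0.27, against 0.0005 over all tested genes. With libraries scaled by their totals the median of the set was -0.30. Without the block 39 of the 362 fell and 1 rose. Zfp599 fell most (4.85, 2.99, 1.33 and 4.43 to 1.10, 0.931, 0.621 and 0.957 CPM, -1.86 ± 0.20), and it was not called without the block. Zfp786 went from 8.27, 7.21, 8.62 and 8.41 to 2.65, 2.13, 3.77 and 2.23, and Zfp128 from 12.3, 8.66, 14.3 and 11.4 to 4.07, 3.06, 5.47 and 3.69, with no overlap. Zfp712, Zfp108, Zfp82, Zfp39, Zkscan4, Zfp708 and Zfp273 fell by between 1.66 and 1.29 on the log2 scale. By chromosome, 47 of 88 tested on chromosome 7 fell, 25 of 46 on chromosome 17 and 22 of 34 on chromosome 13. Fewer fell on some, with 2 of 11 on chromosome 15, 1 of 11 on chromosome 18 and 1 of 7 on the X chromosome. Some others were nearer to the 161 of 362 of the whole set, with 9 of 18 on each of chromosomes 6 and 9. The chromosomes given were picked after their values were seen. Zfp184, chosen after its values were seen, went the other way, from 5.89, 5.36, 9.53 and 6.22 to 21, 19.0, 26.8 and 20.4 CPM (1.70 ± 0.08). Near-identical zinc finger genes share reads, and how the quantification split these was not measured.

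**Figure D3:**
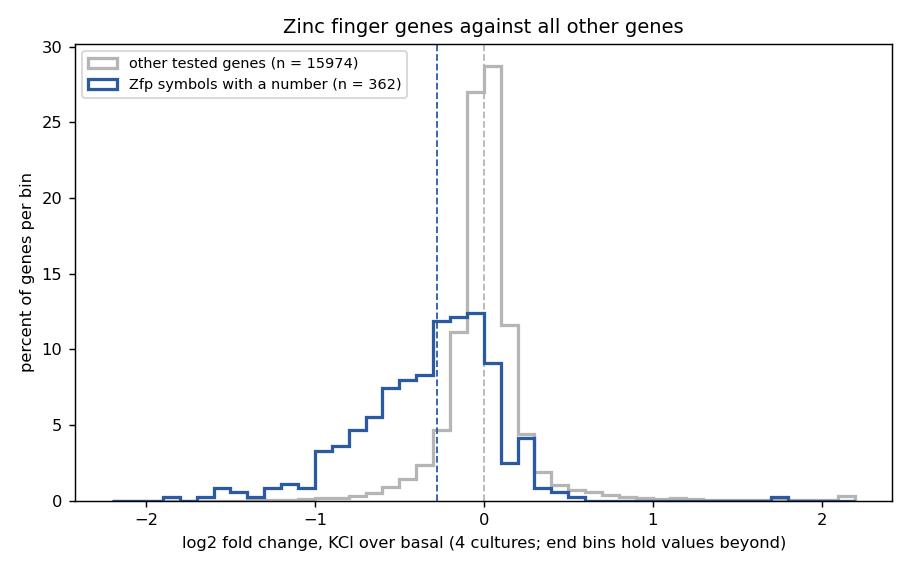
Distribution of the log2 fold change of KCl over basal for 362 Zfp genes (blue) and all other tested genes (grey), as percent of each set per bin; dashed lines are medians. The Zfp genes are shifted to the left, with a median of -0.27.

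Targets of developmental signalling fell in part. Of 23 tested targets of the Notch, Wnt, BMP and hedgehog pathways 5 fell and 0 rose, 2 of them without the block, and the median was -0.02. Mycn, a Myc family factor of progenitors, went from 98.1, 88.7, 62.2 and 90.1 to 44.5, 37.8, 35.7 and 39.3 CPM (-1.09 ± 0.07, adjusted p = 1.39e-07). Axin2, a Wnt target, fell by 0.62, Id1 and Id3, BMP targets, by 0.59 and 0.36, and Dll1, a Notch ligand, by 0.51. Hedgehog targets Gli1 and Ptch1 did not pass, at 0.22 and -0.01. Of 30 glutamate and GABA receptor genes 2 fell, the NMDA receptor subunits Grin2a (-0.57 ± 0.08) and Grin2b (-0.36 ± 0.07), and neither fell without the block. Of 31 channel genes 3 rose and 2 fell. Kcnj2, an inward rectifier, went from 4.09, 2.94, 5.58 and 3.55 to 17.9, 13.8, 16.7 and 19.4, and Kcnf1 rose by 1.25 ± 0.06, while Kcna2 and Kcna4 fell by 0.45 and 0.55. Of 20 CREB family and partner genes 3 rose, Crem, an inducible repressor of CREB targets (1.5 ± 0.10), Pde4d (1.02 ± 0.07) and Hdac5 (0.20 ± 0.05). Creb1 and its coactivators Crebbp and Ep300 did not pass, at -0.14, -0.04 and -0.05. Among 28 BAF subunits 1 fell, Smarcd2 (-0.29 ± 0.07, adjusted p = 0.0124). Over all tested genes 4.43% rose and 3.82% fell. Small counts per list, above, here and among the markers below, are to be read beside these shares. They need not be particular to a list.

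Cell type markers moved little next to these changes. No listed marker of astrocytes, microglia or endothelial cells passed, with medians of -0.01, 0.06 and 0.03. In the oligodendrocyte list 2 of 10 genes fell, among them Sox10 (-0.32), and 1 fell in the fit without wild-type culture 1, in the meningeal list Col3a1 and Dcn rose by 0.25 and 0.35, in the cell cycle list Ccnb1 and Pcna rose by 0.25 and 0.21, and of progenitor markers Insm1 fell by 0.56. Markers of GABAergic neurons moved more. Of 12, 7 rose, with a median of 0.25, and 1 did so without the block. Dlx5, a homeobox factor of interneurons, went from 16.2, 19.2, 17.8 and 17.0 to 32.3, 36.0, 34.1 and 35.1 CPM (0.97 ± 0.06, adjusted p = 9.46e-08). Sst rose by 0.67, Dlx2 by 0.39 and Gad1 by 0.30, and Gad2, Slc32a1 and Lhx6 did not pass, at 0.04, 0.06 and -0.04. Of 11 glutamatergic markers Fezf2, Neurod6 and Neurod2 rose by 0.65, 0.54 and 0.34, none of them without the block. The neuronal marker Nefl rose by 0.74. None of the 13 protein-coding genes of the mitochondrial genome passed, and 2 rose in the fit without wild-type culture 1, as did 1 endothelial or mural marker.

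Individual transcripts were tested in the same way. Of 38247 tested 198 rose, 0.518%, and 27 fell, 0.0706%, from 204 gene symbols. The count depended on each culture: it was 45 without SA culture 1, 28 without SA culture 2, 92 without wild-type culture 1 and 32 without wild-type culture 2. Of the called transcripts 174 that rose and 24 that fell were annotated as protein-coding. Homer1 encodes long scaffold proteins of the postsynaptic density and short forms that lack the coiled coil and compete with them. The short transcript Homer1-204 (ENSMUST00000102752.9, 5 exons) went from 8.14, 7.08, 3.78 and 9.92 to 76.0, 71.3, 69.5 and 117 CPM (3.56 ± 0.18, adjusted p = 0.00505), and Homer1-205 from at most 0.133 to between 7.31 and 13.7. The long transcripts Homer1-203 (10 exons) and Homer1-202 (9 exons) did not pass, at -0.48 ± 0.11 and 0.09 ± 0.09. The Homer1 gene sum rose by 1.44, so the sum understated the short form. Of the Bdnf transcripts, which differ in their first exon and share the coding exon, 1 was called. Bdnf-209 (109692436 to 109727007) went from 0.225, 0.619, 0.553 and 0.393 to 19.97, 21.8, 16.3 and 32.3 CPM. Bdnf-205, Bdnf-201 and Bdnf-210 did not pass, with adjusted p of 0.206, 0.284 and 0.771. The Arc transcripts Arc-201 and Arc-202 rose alike, by 5.28 and 5.33.

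Called transcripts of 3 genes moved in opposite directions, and these were chosen after their values were seen. The main transcript of Arrdc3, Arrdc3-201, went from 112, 85.0, 144 and 116 to 23.7, 17.3, 30.7 and 26.9 CPM, while Arrdc3-203, annotated as a target of nonsense-mediated decay, rose from 6.38, 3.89, 4.25 and 5.16 to 13.5, 12.1, 10.5 and 14.9. Zfp287-204, of the same class, went from 5.71, 5.22, 7.82 and 6.12 to between 0.0448 and 0.126, and Zfp287-206, protein-coding, from at most 0.0425 to between 2.98 and 3.99. Of Noct, which encodes a circadian phosphatase, the transcript Noct-203 fell by 0.70 while Noct-202 rose by 1.16 and Noct-204 by 2.34 on the log2 scale. Reads shared by overlapping transcripts are divided by a model, so a change in one can alter the estimate of another, and its part here was not tested.

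Gene structure was compared between the classes. Among tested protein-coding genes with 1 annotated locus, those that rose at least 4-fold (40 genes) had a median span of 7.19 kb and 3 exons in their main transcript. Over all 12927 such genes the medians were 25.8 kb and 9 exons. Genes that rose 2-fold to 4-fold (66) spanned 11.8 kb with 4 exons, smaller rises (473) 19.7 kb with 6, and genes that fell by under 2-fold (475) 15.7 kb with 4. Transcript length differed far less, with medians of 2854 bases in the first class and 2938 over all. Not every strongly induced gene was short: Pcsk1 spanned 45036 bases with 14 exons and Bdnf 52308 bases. An annotated span can exceed that of the induced transcript. The locus of Dusp1 spanned 56539 bases, but its called transcript Dusp1-202 ran only from 26505590 to 26508519 on chromosome 17. The 3′ untranslated region held TATTTAT, an AU-rich element tied to mRNA decay, in 47.5% of genes that rose at least 4-fold and in 28% of all, with median lengths of that region of 1263 and 973 bases. The share was also above that of all genes for those that rose 2-fold to 4-fold (40.9%), rose less (39.5%), fell by under 2-fold (37.7%) and fell at least 2-fold (32.4%). Per kilobase of that region there were 0.596 matches in the first class, 0.298 over all genes and 0.658 in genes that fell at least 2-fold.

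Responses were then compared between cultures. To read them without choosing genes on these libraries, genes induced at least 2-fold in the SE line were taken (250 of 15907 tested there, 1.57%). Of these 229 were tested here, 176 rose (76.9%) and 1 fell. In turn, of the 155 genes that rose at least 2-fold in the SA line 122 were on the SE-line list (78.7%). Over the 229 genes the median log2 ratio was 1.32 in SA culture 1, 1.15 in SA culture 2, 1.18 in wild-type culture 2 and 0.91 in wild-type culture 1. The smallest of the 4 ratios was that of wild-type culture 1 for 117 of the 229 genes (51.1%). The same culture had the lowest ratio for 11 of the 15 genes that rose most. Its lower neuronal and higher cell cycle marker levels, given above, move with this, and their part was not tested. Without it 1331 genes were called, 752 up and 579 down, and all 15 of those that rose most and all 15 that fell most were among them.

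**Figure D4:**
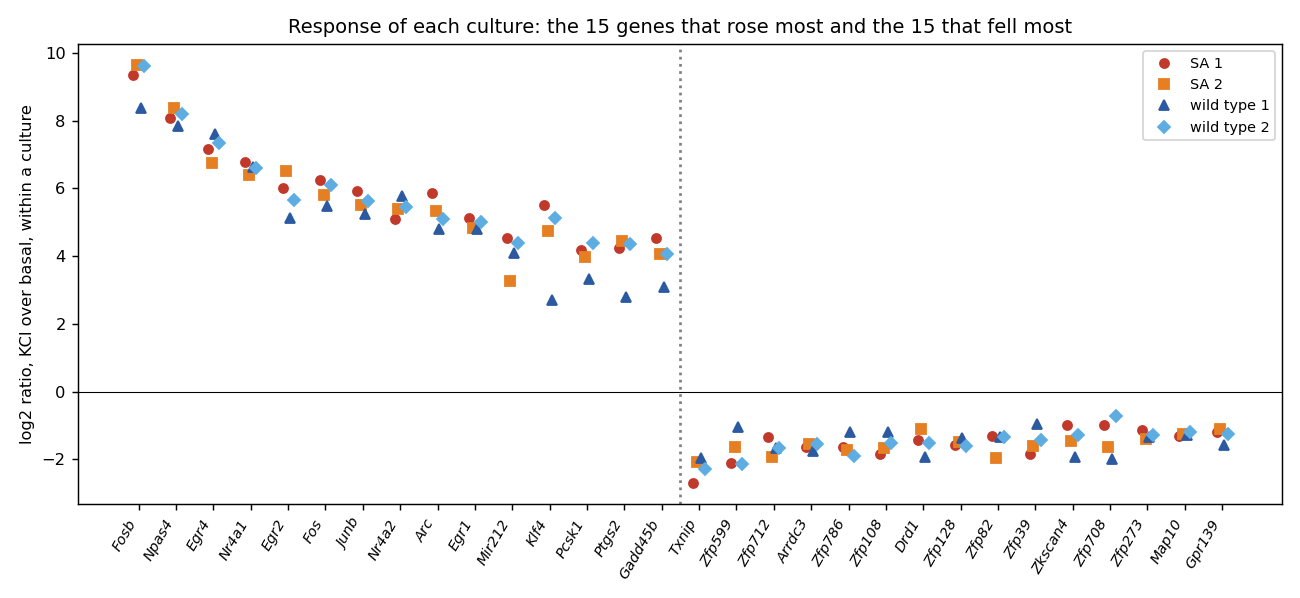
Log2 ratio of KCl over basal within each culture for the 15 genes that rose most and the 15 that fell most, in that order; colours and shapes mark the culture. Wild-type culture 1 (dark blue triangles) is lowest for 11 of the 15 risers, among them Klf4, Ptgs2 and Gadd45b. All cultures share the sign for every gene because only such genes were eligible.

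The design also asks whether the knock-in alters the response, as the difference in KCl response between SA and wild-type cultures. No gene was called (0 of 16336, 0.0%), 675 had an unadjusted p under 0.05, and DESeq2 called 0 with 143. With 2 cultures a side the median standard error of the difference was 0.14 on the log2 scale, so differences of small size could not be seen. Larger ones could be missed too, since among the 15 genes that rose most the standard error reached 1.005. For the 15 genes that rose most the differences ran from -0.54 to 1.44, and 4 of them were below 0. Npas4 differed by 0.23 ± 0.24, Nr4a1 by -0.03 ± 0.17, Egr1 by 0.08 ± 0.14 and Arc by 0.67 ± 0.23. The largest, Klf4 (1.44 ± 0.51), rests on wild-type culture 1, whose ratio was the lowest. The fit called 17 genes without wild-type culture 1 and 51 without wild-type culture 2. Each of these fits leaves 1 wild-type culture, which is assumed to vary like the SA cultures. The wild-type cultures in fact differed more from each other. Between the 2 basal libraries of a genotype the mean chi-square of counts per gene was 77.4 for wild type and 37.2 for SA. After KCl it was 71.5 and 20.8.

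The SA line responded differently from the SE line in 194 of 17296 genes, by a test of the difference itself. The log2 change was more negative in the SA line for 151 of them, 0.873%, and more positive for 43, 0.249%. Line, preparation and all else that sets the lines apart cannot be told apart here. The count was 127 without SE culture 1, 364 without SE culture 2, 125 without the SE line's wild-type culture and 51 without the culture block. Many immediate early factors were among the former. Of 10 tested AP-1 genes 8 had a more negative response, as had 3 of 6 Egr and Nab genes. Egr1 had log2 ratios of 4.94 ± 0.16 (SD, n = 4) in the SA line and 6.80 ± 0.22 (SD, n = 3) in the SE line, a difference of -1.85 ± 0.12 (standard error, adjusted p = 2.41e-07). Arc had 5.26 ± 0.45 and 7.30 ± 0.19, Fos 5.90 ± 0.34 and 7.48 ± 0.31, and Atf3 1.82 ± 0.23 and 4.91 ± 0.21. Basal levels of Fos were alike, at 7.64 and 7.42 CPM, while KCl levels were 445 and 1330 CPM. Npas4 was not called different, and neither was Fosb (0.78 ± 0.24, adjusted p = 0.165).

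A few genes that rose strongly in the SE line changed far less in the SA line. Cyr61 had ratios of 0.78 ± 0.41 and 5.08 ± 0.28, with basal levels of 91.0 CPM in the SA and 18.8 CPM in the SE line. Arl4d, a small GTPase, had 0.52 ± 0.23 and 3.42 ± 0.23, and Adrb1, the beta-1 adrenergic receptor, 0.19 ± 0.26 and 2.37 ± 0.13. Adrb1 did not pass in the SA line (adjusted p = 0.238), although basal levels were alike at 16.7 and 17.2 CPM. Nr4a2 went the other way, with 5.43 ± 0.28 in the SA and 2.46 ± 0.13 in the SE line, a difference of 2.97 ± 0.12 (adjusted p = 3.4e-09). Its basal level was 4.22 CPM in the SA line and 105 CPM in the SE line, and after KCl it was 182 and 579 CPM. Pcsk1 had the larger ratio in the SA line too (3.96 ± 0.45 and 2.90 ± 0.32). Among genes that fell, Txnip dropped further in the SA line (-2.26 ± 0.33 and -0.75 ± 0.14), from basal levels of 44.0 and 7.49 CPM, and Drd1 had ratios of -1.49 ± 0.32 and -0.04 ± 0.08.

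**Figure D5:**
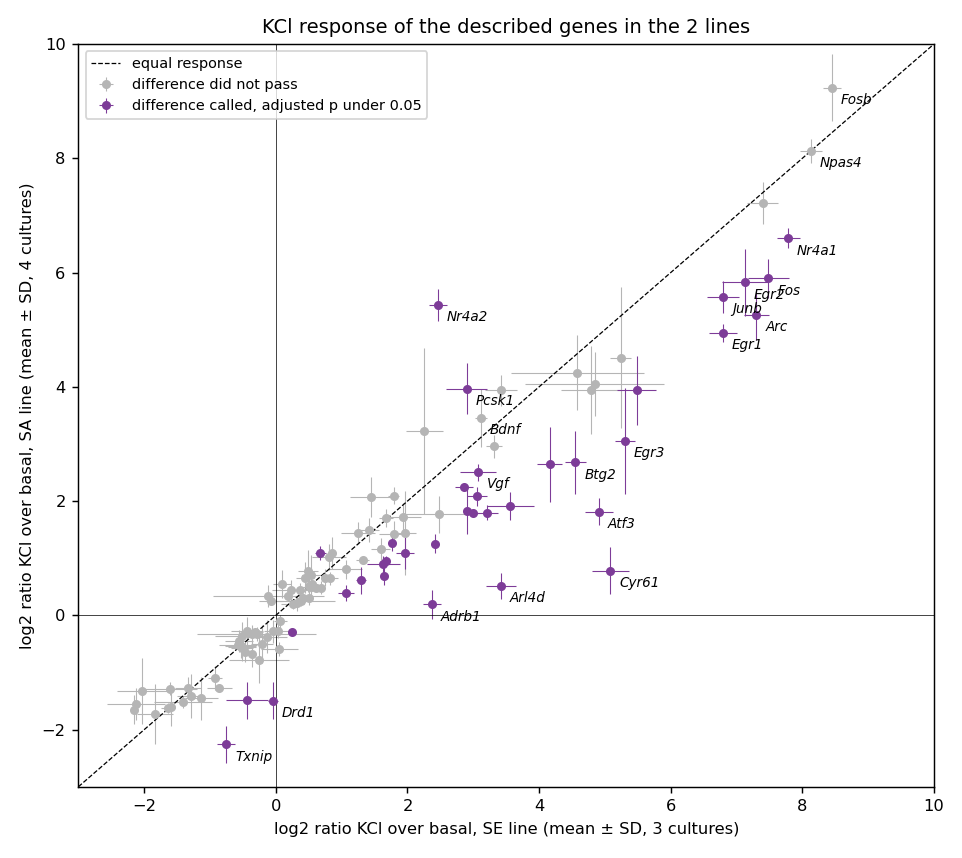
Mean log2 ratio of KCl over basal in the SA line (y axis, 4 cultures) against the SE line (x axis, 3 cultures) for the genes described here; bars are SD, purple marks a called difference and the dashed line is equality. Most purple points lie below the line, Cyr61, Atf3 and Arl4d furthest, and Nr4a2 lies above it.

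Levels at basal set the lines apart in many more genes, 4439 higher (26.7%) and 3710 lower (22.3%) in the SA line of 16613 tested. With wild-type libraries only, 1 of them in the SE line, 1289 genes were called. All 18 cell cycle genes were higher, with Mki67 at 171 ± 63.8 (SD, n = 4) against 7.08 ± 0.44 CPM (n = 3). So were 10 of 12 astrocyte genes, such as Aqp4 (256 ± 63.7 against 16.6 ± 2.55), 9 of 10 oligodendrocyte genes, 8 of 10 microglial and 10 of 10 meningeal genes. Of 11 glutamatergic markers 7 were lower, with a median difference of -1.47, and Tbr1 stood at 57.3 ± 6.04 against 454 ± 18.7 CPM. Of 12 GABAergic markers 9 were higher. General neuronal markers differed less, with 2 of 10 lower, Snap25 and Syt1, and 0 higher. These levels move with the smaller responses of the SA line, and their part in them was not tested.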

How the data were processed

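Reads were quantified with kallisto 0.43.1 against GRCm38, per the submitters' processing notes. The authors deposited estimated counts per gene symbol and per transcript, and TPM, which are also scaled for transcript length. Of the nonzero deposited estimated counts per gene 65.6% were not whole, and all were rounded before testing. Libraries were scaled by TMM and tested with edgeR 4.0.16 (quasi-likelihood F test, R 4.3.3) after its filter on low counts, with culture as a block and Benjamini-Hochberg adjustment over all genes tested at 0.05. Ratios within a culture used a pseudocount of 0.05 CPM. DESeq2 1.42.0 and limma 3.58.1 on log2 of the deposited TPM + 1 were alternatives. Each library correlated best with the one of its own culture name (0.67, 0.50, 0.83 and 0.47 for deviations from group means), and the pairing rests on those names and this check. The labels do not say that such libraries share a plating. Fits were tested on simulated data.

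Members, lists and tests were chosen with earlier results of these data known. Genes were named by a rule: Smarca4, the 15 called genes that rose and the 15 that fell most at a mean of at least 1 CPM with 1 direction in all 4 cultures, up to 4 members of each list with the lowest p, and up to 6 genes with the lowest p in each other comparison. For lines at basal the last step was not completed, and of the genes it picked only Nr4a2 and Tbr1 are described. Other list members given with values, and the genes Dusp7, Socs3, Camk4, Zfp184 and Mir132, were chosen after their values were seen. Gene positions are GRCm38, and sequences are from RefSeq's tables. Some list members are not reported here.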

Additional observations from a re-analysis of the deposited data

Results flagged for a closer look

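In 11 of 114 genes examined (9.65%) the log2 response of 1 culture stood apart from the other 3, by Dixon's criterion for the gap to the nearest of them. Chance flags about 1 in 20 groups. Wild-type culture 1 was the culture concerned in 7 of the 11. In wild-type culture 1 it was 2.79 for Ptgs2 (others 4.24 to 4.44), 4.43 for Egr3 (others 2.49 to 2.71), 0.34 for Edn1 (others 1.71 to 1.95), 0.25 for Btg1 (others 0.71 to 0.78), 1.5 for Plk2 (others 0.93 to 1.01), 1.06 for Rasd1 (others 3.78 to 4.26) and 0.87 for Rasgef1b (others 0.57 to 0.61). In wild-type culture 2 it was -0.18 for Dusp7 (others -0.33 to -0.31) and -0.14 for Sox10 (others -0.41 to -0.37). In SA culture 1 it was 0.2 for Gad1 (others 0.33 to 0.34). In SA culture 2 it was -1.95 for Zfp82 (others -1.34 to -1.32).

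Of the genes described by name, 36 differed in KCl response between the SA and SE lines by the test of the difference (edgeR, adjusted over all genes). Values are log2 changes in the SA line minus those in the SE line. It was positive for Nr4a2 (2.97), Pcsk1 (1.11) and Atf4 (0.41). The most negative were Cyr61 (-4.3), Atf3 (-3.11), Arl4d (-2.89), Egr3 (-2.38), Adrb1 (-2.19), Arc (-2.06), Btg2 (-1.92), Egr1 (-1.85), Gadd45g (-1.66), Fos (-1.6) and Dusp1 (-1.56). Further negative differences were Gadd45b (-1.55), Txnip (-1.48), Drd1 (-1.48), Tob2 (-1.42), Egr2 (-1.28), Junb (-1.22), Ppp1r15a (-1.21), Nr4a1 (-1.18), Kcnf1 (-1.18), Dusp6 (-1.09) and Zfp82 (-1.07). The remaining ones were Trib1 (-0.98), Mcl1 (-0.96), Spry2 (-0.88), Dnajb1 (-0.74), Tob1 (-0.72), Btg1 (-0.69), Dlx2 (-0.68), Sik1 (-0.61), Vgf (-0.58), Dusp7 (-0.54) and Errfi1 (-0.49). All 4 SA-line cultures are set against 3 SE-line cultures here, and line and preparation cannot be told apart.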

How the results depend on the processing

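For KCl against basal (1348 genes) the fit without culture as a block, so with no pairing of libraries, called 285 genes, limma on log2(TPM + 1) 663 and the wild-type cultures alone 468 (317 up, 151 down), against 1207 (569 up, 638 down) for the SA cultures alone, and leaving out 1 culture at a time gave 921 to 1331. DESeq2 called 955, and scaling by library totals 1427. For the difference between SA and wild-type cultures (0 genes) a filter of at least 1 CPM gave 1, and leaving out 1 culture gave 0 to 51. For the difference between lines (194) the fit without the block gave 51, wild-type libraries only 54, and leaving out 1 culture 125 to 364. For lines at basal (8149) wild-type libraries only gave 1289, and leaving out 1 culture 6111 to 9046. For transcripts (225) leaving out 1 culture gave 28 to 92, and the fit without the block 183. The cause of these shifts was not tested, beyond the fewer libraries in the reduced fits. Of 112 called genes described by name, 46 lost the call without the block, 21 with limma, 21 with wild-type cultures only, 7 with SA cultures only, 6 with DESeq2, 2 with all 14 libraries, 1 with library totals and 3 to 10 without 1 culture. No sign was reversed in these fits. With 4 pairs, small changes of genes with few counts were limited by depth and by the spread between cultures.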
